A study of Mus musculus with 2 samples.

Results

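The miR-26 family of the mouse comes from 3 genes, Mir26b, Mir26a-2 and Mir26a-1, each read out of an intron of a different member of 1 phosphatase gene family (Ctdsp1, Ctdsp2 and Ctdspl). They were chosen by symbol among the 2202 microRNA genes of GENCODE M21, so they are 3 of 2202 genes. The study sequenced small RNA, labelled as below 30 bases, from the left cerebral cortex of B6CASTF1/J mice, hybrids of C57BL/6J and CAST/EiJ parents. Both animals were males aged 36 days, untreated as far as the labels say, and they form 1 group of 2 libraries. Replicate 1 came from the animal numbered 3 and replicate 2 from the animal numbered 4, although both carry a single donor identifier. With 1 group there is no contrast between conditions, so the values below are levels and differences between these libraries.

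MicroRNAs are cut from a folded hairpin, and 1 or both arms are loaded into an Argonaute protein, where bases 2 to 8 (the seed) pair with target messages. The miR-26 family is abundant in many tissues and is known for repressing messages such as Ezh2. Its hosts encode small phosphatases that remove phosphate from the tail of RNA polymerase II and work with the repressor REST to keep neuronal genes off outside neurons. In the developing nervous system miR-26 is known to repress Ctdsp messages, including that of its own host.

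The hairpins are printed first because their sequences decide which reads can be given to which gene. They are the RefSeq hairpins on GRCm38.p6, the assembly that mm10 names, and 3 of 3 were identical to the GENCODE M21 transcript. Capitals mark the 25 bases that Mir26a-1 and Mir26a-2 share without a mismatch. In Mir26b they mark the longest unbroken run, 11 bases, that it shares with Mir26a-1. All 3 lie on the + strand, 5′ to 3′.
Mir26a-1 (chr9:119031796-119031885): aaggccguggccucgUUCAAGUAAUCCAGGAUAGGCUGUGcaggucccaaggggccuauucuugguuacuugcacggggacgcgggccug
Mir26a-2 (chr10:126995530-126995613): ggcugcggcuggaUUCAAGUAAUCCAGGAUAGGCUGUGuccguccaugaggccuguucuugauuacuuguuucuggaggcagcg
Mir26b (chr1:74394310-74394394): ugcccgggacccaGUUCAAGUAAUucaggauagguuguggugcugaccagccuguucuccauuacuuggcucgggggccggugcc

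The mature arms follow, with the seed (bases 2 to 8) in capitals, since they show that the members are 1 family on the 5p side and differ on the 3p side.
miR-26a-5p: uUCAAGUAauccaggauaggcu
miR-26b-5p: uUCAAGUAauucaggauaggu
miR-26a-1-3p: cCUAUUCUugguuacuugcacg
miR-26a-2-3p: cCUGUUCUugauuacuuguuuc
miR-26b-3p: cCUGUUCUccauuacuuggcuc
Mir26a-1 and Mir26a-2 give the same 5p arm. Against it miR-26b-5p carries C11U and C21U over 21 bases compared, counted from 1 at the 5′ end with the base of miR-26a first. The seed UCAAGUA was carried by 2 of the 1679 mature names in the RefSeq table, miR-26a-5p and miR-26b-5p. The 3p arms of the miR-26a loci differ from each other at 6 of 22 bases, the first within the seed (A4G, Mir26a-1 first). The seed of miR-26a-2-3p is that of miR-26b-3p, from which it differs at 4 of 22 bases, all outside the seed.

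The shared 5p run sets what these counts can hold, because reads that fit several places stand in a separate entry and belong to no gene. For reads of 18 to 29 bases that start within 2 bases of the annotated 5p start, 21 of 60 windows of Mir26a-1 and 21 of 60 of Mir26a-2 occur in the other hairpin. At the annotated start itself, a window must reach 26 bases to be found in 1 of the pair, which 4 of 12 lengths do. Every one of the 60 windows on each 3p arm, and on both arms of Mir26b, occurs in its own hairpin and in no other microRNA hairpin of the annotation. The annotated 22-base miR-26a-5p can thus not be assigned to a locus, and the miR-26a counts below do not give the level of that microRNA. Places in the genome outside annotated hairpins and transcripts were not searched.

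**Figure D1:**
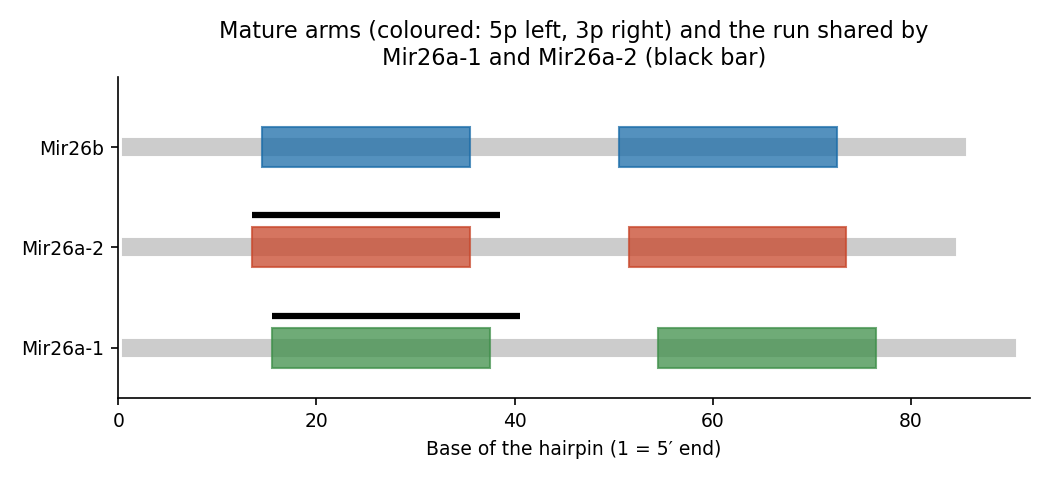
Hairpins of the 3 genes drawn to scale (horizontal axis, base of the hairpin counted from the 5′ end), with the mature 5p and 3p arms as coloured boxes and the 25-base run shared by Mir26a-1 and Mir26a-2 as black bars. The bar covers the whole 5p arm of both miR-26a loci and leaves their 3p arms free.

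The predicted folds were alike. The lowest-energy structure of the 90-base hairpin of Mir26a-1 had 68 paired bases and -49.4 kcal/mol, that of the 84 bases of Mir26a-2 had 64 and -44.5 kcal/mol, and that of the 85 bases of Mir26b had 66 and -43.5 kcal/mol. GC content was 60.0%, 53.6% and 58.8% in the same order. The 3 hairpins are therefore close in length, base composition and folding energy.

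In the principal transcript of its host, each of the 3 hairpins lies inside an intron, on the strand of the host. No gene other than the host overlaps them in the annotation. Mir26b lies in intron 4 of 7-exon Ctdsp1-201 (Ctdsp1, chr1:74391509-74397285). Mir26a-2 lies in intron 5 of 8-exon Ctdsp2-202 (Ctdsp2, chr10:126978717-126999975), and Mir26a-1 in intron 5 of 8-exon Ctdspl-201 (Ctdspl, chr9:118926453-119043998). Counted from the 3′ end, the intron is the same in each host. It has 3 exons after it, interrupts the reading frame between codons (phase 0), and is followed by 405, 402 and 402 coding bases in Ctdsp1, Ctdsp2 and Ctdspl.

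What the hosts do not share is size. Ctdsp1 spans 5777 bases, Ctdsp2 21259 and Ctdspl 117546, and the introns around the hairpins measure 564, 1946 and 3283 bases. The hairpin begins 2801 bases from the transcript start in Ctdsp1, 16813 in Ctdsp2 and 105343 in Ctdspl. In Ctdsp2, transcripts 201 and 203 are annotated to start at position 126995613, the last base of the Mir26a-2 hairpin, and the RefSeq table lists a start site at that base too. Only the longer transcript of Ctdsp2, 1 in all, spans the hairpin, against 2 in Ctdsp1 and 3 in Ctdspl. Host messages were not measured here.

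**Figure D2:**
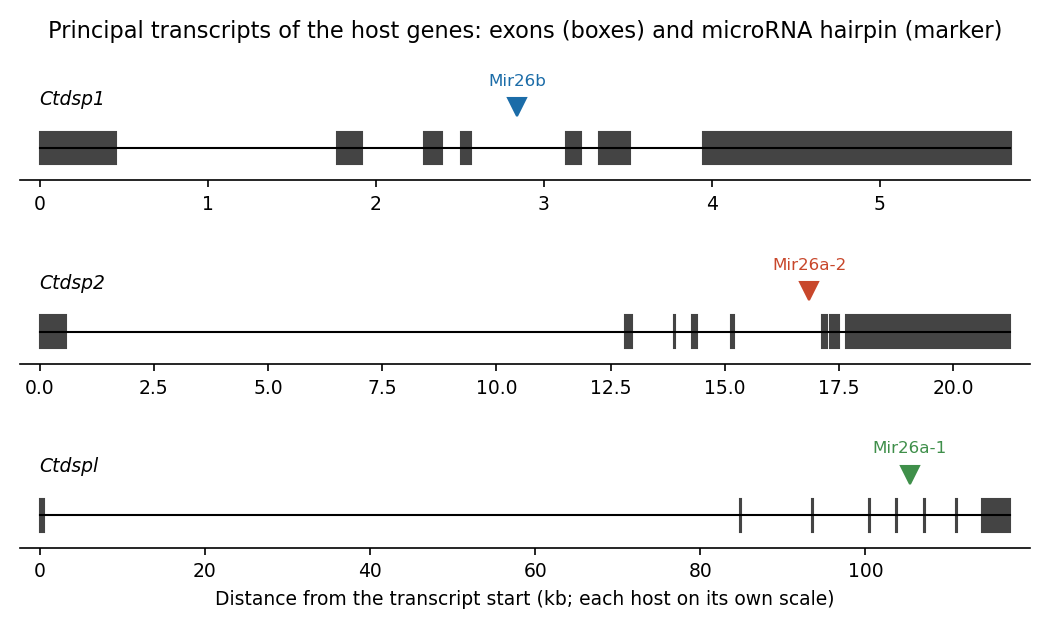
Principal host transcripts (horizontal axis, distance from the transcript start in kb, a separate scale for each host), with exons as boxes and the microRNA hairpin as a marker. In each host 3 exons follow the hairpin, while its distance from the start is 2801 bases in Ctdsp1, 16813 in Ctdsp2 and 105343 in Ctdspl.

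Of 11886775 and 11534730 reads in replicates 1 and 2, 36.0% and 34.8% were counted on the strand of a microRNA gene, and 42.8% and 39.9% fitted several places. Levels are given in CPM, own-strand counts per 1000000 such counts (4273791 and 4010274), and a count of 0 allows up to 0.702 and 0.748 CPM. Intervals are exact 95% binomial intervals, and like this limit they cover counting error only. The neuronal microRNA genes listed for the tissue check summed to 85630 and 53534 CPM, led by Mir132 (54937 and 30022 CPM) and Mir128-1. The sum thus rests largely on Mir132, and 1 of 12, Mir124a-2, had 0 counts. Other listed loci were low: Mir124a-1 had 10 and 15 counts, Mir124a-3 20 and 4, and Mir9-2 7 and 6. Mir9-1 had 83 and 46 counts, and Mir9-3 had 314 and 251. Reads that fit several copies of Mir124a or Mir9 are missing from these counts. In a piece of tissue, fewer cells of a type and less RNA per cell cannot be told apart.

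Mir26b, which gives a 5p arm of its own sequence, held nearly all counts of the family. Replicate 1 had 18481 counts or 4324 CPM (4262 to 4387) and replicate 2 had 17151 counts or 4277 CPM (4213 to 4341), a mean of 4301 ± 33.6 CPM (SD, n = 2). The libraries were almost equal, and the gene ranked 42 and 46 among all microRNA genes. Among the 141 detected genes (10 CPM or more in both libraries) that lie inside a protein-coding gene on its strand, Mir26b ranked 21 by mean level, and the median of these genes was 233 CPM.

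Mir26a-2 was the member whose level differed. It had 1504 counts or 352 CPM (334 to 370.2) in replicate 1 and 47 counts or 11.7 CPM (8.61 to 15.6) in replicate 2. Replicate 1 was thus 29.2-fold higher, the ranks were 152 and 304, and the mean of 182 ± 241 CPM (SD, n = 2) describes neither library. Among the 141 detected genes within protein-coding genes it ranked 66 in replicate 1 and 139 in replicate 2. That class leaves out genes below 10 CPM in either library, so 11.7 CPM lies near its bottom by construction.

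Mir26a-1 was the lowest of the 3. It had 34 counts or 7.96 CPM (5.51 to 11.1) in replicate 1 and 20 counts or 4.99 CPM (3.05 to 7.70) in replicate 2, a mean of 6.47 ± 2.10 CPM (SD, n = 2). Both values lay below 10 CPM, and their intervals overlap. The ranks were 334 and 370.

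The order Mir26b, Mir26a-2, Mir26a-1 held in both libraries, and no neighbouring intervals overlapped within a library. Mir26a-2 in replicate 2 (11.7 CPM) came near Mir26a-1 in replicate 1 (7.96 CPM), and those intervals do overlap. Per 100 bases of hairpin the mean levels were 5059, 216 and 7.19 CPM, in the same order, so hairpin length changed little. No opposite-strand count fell on any of the 3 (0 and 0), and counting without strand gave the same counts.

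**Figure D3:**
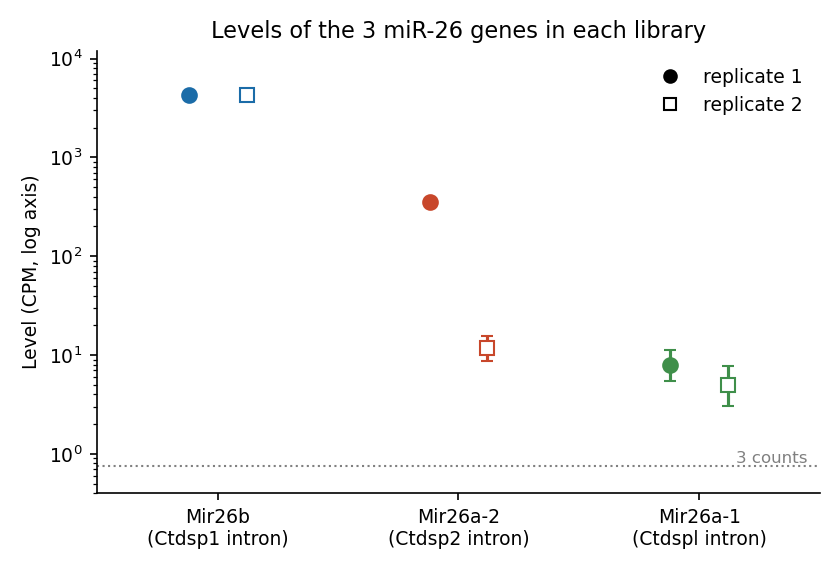
Level of each gene in each library (vertical axis, CPM on a log axis), with exact 95% binomial intervals. Mir26b sits at 4324 and 4277 CPM, Mir26a-2 falls from 352 to 11.7 CPM and Mir26a-1 lies at 7.96 and 4.99 CPM.

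Together the 3 genes had 20019 and 17218 counts, 4684 and 4293 CPM, or 4489 ± 276 CPM (SD, n = 2). That is 0.468% and 0.429% of all own-strand counts. Mir26b made up 92.3% (91.9 to 92.7) of the family in replicate 1 and 99.6% (99.5 to 99.7) in replicate 2. The share of Mir26a-2 was 7.51% (7.15 to 7.89) and 0.273% (0.201 to 0.363), and that of Mir26a-1 was 0.170% and 0.116%. These are shares of assigned reads, from which any miR-26a-5p read that fitted both loci is missing.

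Each library was then compared with the other by an exact two-sided binomial test over all 516 genes with 10 or more counts, with Benjamini-Hochberg adjustment. The test measures whether 2 libraries differ beyond counting error, not whether animals do. Many genes did: 299 passed at an adjusted p under 0.05, which is 57.9%. The coefficient of variation beyond counting error, from the common dispersion that edgeR fitted over these 516 genes, was 43.7%. Of the 3 members 1 passed, lower in replicate 2, where 157 genes or 30.4% of all tested were called in that direction. With a log2 ratio of at least 1 in size also required, the same member remained among 60 genes or 11.6%. A count of 1 in 3 is thus near the background, and only the size of the difference sets Mir26a-2 apart.

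The log2 ratio of Mir26a-2, replicate 2 over replicate 1, was -4.87 (-5.32 to -4.45), with an adjusted p from the exact binomial test too small to be represented and returned as 0. Among the 309 genes with 100 or more counts, whose ratios were 0.46 in median size, no other lay as far from 0. Above 0, Mir451a reached 3.99 (201 and 2910 counts) and Mir200c 3.75 (66 and 808). The next lowest were Mir24-1 at -2.69 (375 and 53 counts), Mir181a-2 at -2.53 (114 and 18) and Mir22 at -2.45 (67285 and 11223). All of these were named after their values were seen. Below that minimum 1 of the 511 tested genes with counts in both libraries was lower, the leukocyte gene Mir223 at -5.00 with 70 and 2 counts, an interval of -8.07 to -3.09 that holds the ratio of Mir26a-2.

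Mir26b did not pass the test, with a log2 ratio of 0.024 (-0.0057 to 0.054) and an adjusted p of 0.169 by the exact binomial test. Of the 309 genes with 100 or more counts, 303, itself included, lay at least as far from 0. Its sign turned with the scaling of the libraries, to -0.011 with DESeq2 size factors and -0.016 with total counts. Scaled to totals without Mir139, the gene with the highest mean, it was called lower at -0.089 (adjusted p 1.72e-08, exact binomial). Mir26a-1 had a log2 ratio of -0.63 (-1.51 to 0.20) and an adjusted p of 0.195 by the same exact test. That interval reaches from a lower to a slightly higher level, so at 54 counts a difference of this size was not detectable.

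**Figure D4:**
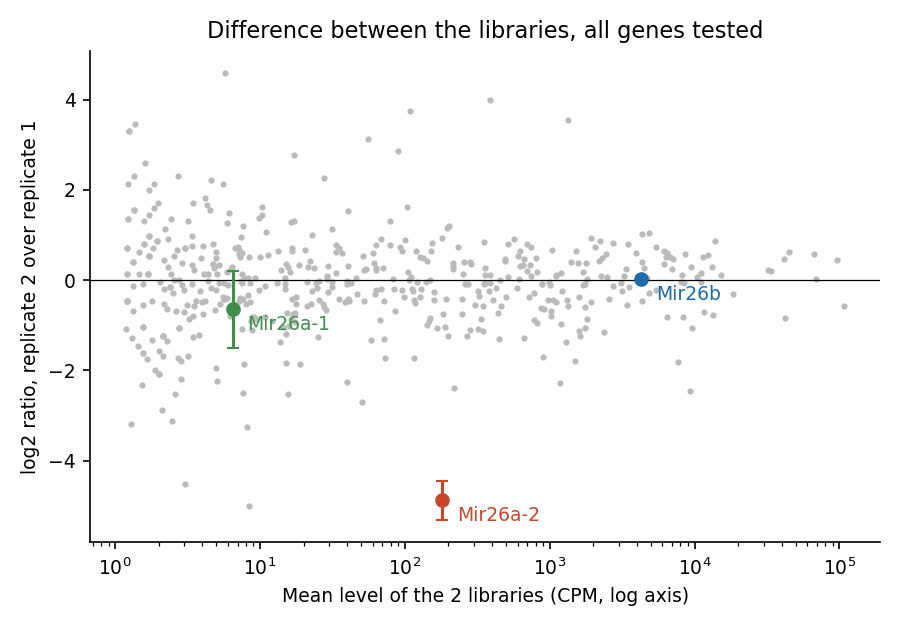
Log2 ratio of replicate 2 over replicate 1 (vertical axis) against the mean level (horizontal axis, CPM on a log axis) for the 511 genes tested with counts in both libraries. Mir26a-2 lies at -4.87, far below other genes of its level, while Mir26b is at 0.024 and Mir26a-1 at -0.63.

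Ratios between members within a library do not depend on scaling. Mir26b had 12.3 counts (11.7 to 13.0) for each count of Mir26a-2 in replicate 1 and 365 (274 to 497) in replicate 2, a log2 change of 4.89 (4.47 to 5.34). Mir26a-2 had 44.2 counts (31.5 to 64.1) for each of Mir26a-1 in replicate 1 and 2.35 (1.37 to 4.19) in replicate 2, a change of -4.23 (-5.19 to -3.24). Mir26a-2 therefore moved against each of its relatives, beyond counting error. The ratio of Mir26b to Mir26a-1 was 544 (389 to 785) and 858 (555 to 1404), and its change of 0.66 (-0.18 to 1.53) has an interval that holds 0.

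Loci that share a mature arm were compared as pairs, to see how steady the balance of assigned reads within such a pair was. Reads that fit both loci of a pair are missing from these counts. There were 17 pairs with 10 or more counts at each locus, and the miR-26a pair changed most. Mir26a-2 made up 97.8% (96.9 to 98.5) of the pair in replicate 1 and 70.1% (57.7 to 80.7) in replicate 2, on 1538 and 67 counts (360 and 16.7 CPM). In the other 16 pairs the log2 change of the within-pair ratio had a median size of 0.56 and a largest size of 1.96, in the Mir181a pair, and for 3 of them the interval held 0. Mir128-1 and Mir128-2, which also lie in introns of paralogous genes (R3hdm1 and Arpp21), both fell in replicate 2. Their balance changed little, though beyond its interval (log2 change 0.096, 0.047 to 0.15), with Mir128-1 at 79.7% and 80.7% of 69596 and 30274 counts. The Mir24 pair fell from 659 to 107 counts, a log2 ratio of -2.49 for the sum against -4.39 for miR-26a, with no change of balance beyond its interval (-0.43, -1.05 to 0.19). Of the 54 genes listed with such copies 50 matched the annotation and 38 were tested, 10 higher and 17 lower in replicate 2, where 27.5% of all 516 genes tested were higher and 30.4% lower. Their median log2 ratio was -0.15 against -0.036 over all genes tested.

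**Figure D5:**
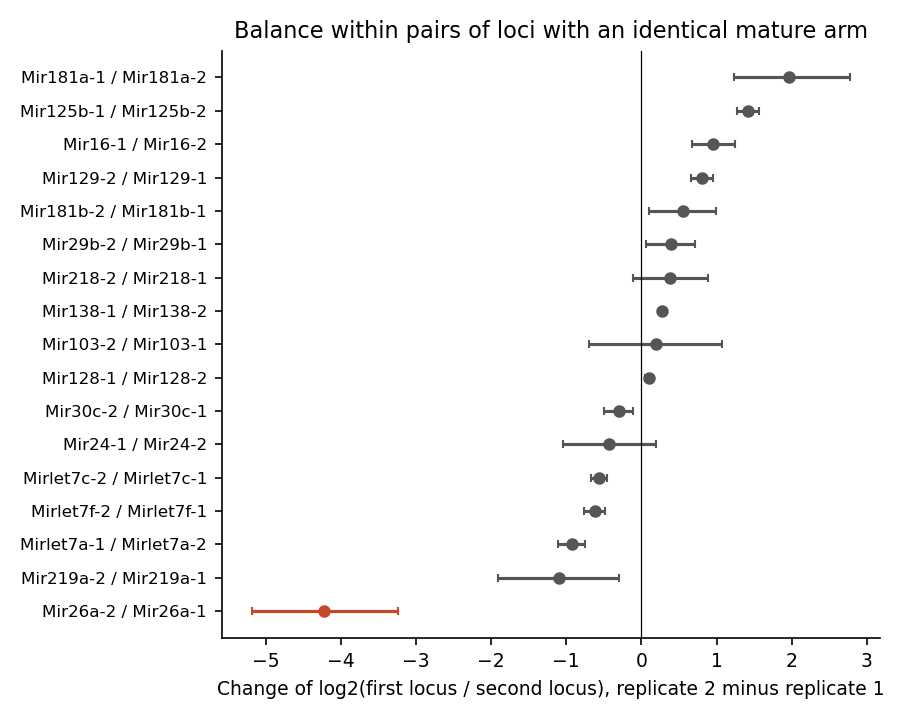
Change of the log2 ratio between the loci of a pair, replicate 2 minus replicate 1 (horizontal axis), with exact 95% intervals, for 17 pairs of loci with an identical mature arm. The miR-26a pair lies at -4.23, and the pair with the next largest change, Mir181a, at 1.96. Reads that fit both loci of a pair are not counted.

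The Pank genes, which encode pantothenate kinases, hold a family of the same layout. There Mir107 has its own sequence and Mir103-1 and Mir103-2 share an arm, as Mir26b and the miR-26a loci do. Runs that Mir107 shares with these copies were not searched. The longest unbroken run that Mir26b shares with a miR-26a locus is 11 bases, although the 5p arms differ at only 2 of 21 bases compared. The counts of the 2 families may therefore differ in which reads they can hold. Mir107 had 12592 and 23192 counts and made up 99.0% (98.8 to 99.1) and 99.1% (99.0 to 99.3) of its family, a share of assigned reads only, since Mir103-1 and Mir103-2 have a 27-base run in common and reads within it fit both. Its ratio to the copies was 95.4 and 115, where that of Mir26b to the miR-26a loci reached 256 in replicate 2 as its share went from 92.3% to 99.6%. Across the 13 other listed genes in introns of paralogous hosts, 2 were higher and 7 lower in replicate 2 (27.5% and 30.4% of all genes tested), with a median log2 ratio of -0.58 against -0.036 over all genes tested.

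Genes linked to REST, the partner of the host phosphatases, were listed as the nearest part of the pathway that this assay measures. Of 8 listed, 7 were tested, 0 were higher and 4 lower in replicate 2, with a median log2 ratio of -0.64. Over all genes tested 27.5% were higher and 30.4% lower, with a median of -0.036, so a list of 7 genes is small against that background. Mir132, an activity-induced microRNA with a REST site, stood at 54937 and 30022 CPM (log2 ratio -0.83), and its neighbour Mir212 at 1121 and 700.5 CPM (-0.64). The ratios of the members beside these were -4.87 for Mir26a-2, 0.024 for Mir26b and -0.63 for Mir26a-1. Marker lists are to be read against the same background, in which 57.9% of all genes tested were called in either direction. Of 11 neuronal genes tested 2 were higher and 6 lower, and the sums of oligodendrocyte genes (0 higher and 2 lower of 3) were 5098 and 3543 CPM. The 3 red-cell genes summed to 83.5 and 794 CPM (2 higher), the 5 epithelial genes to 138 and 386 CPM (4 higher, 1 lower), and the striated-muscle genes, 2 of 8 at 0 counts, to 80.5 and 29.9 CPM (4 of 4 tested lower). Mural genes (1 higher and 1 lower of 2) summed to 5178 and 7691 CPM, leukocyte genes (2 and 2 of 5) to 2228 and 2065, choroid plexus genes (0 and 1 of 2) to 458 and 391, and the endothelial gene Mir126a, called lower, stood at 11394 and 10799. The part of these cell types and of the multi-mapped reads in the difference of Mir26a-2 was not tested.

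Genes whose pair of levels was most like each member were found by distance in log2(CPM + 1) over the 2 libraries. For Mir26b these were Mir378a (distance 0.19), Mir30a (0.19) and Mir98 (0.28), and for Mir26a-1 they were Mir758 (0.07), Mir7000 (0.13) and Mir6986 (0.20). Mir26a-2 had no near match: its closest genes were Mir24-1 at 2.00, Mir3068 at 2.17 and Mir101a at 2.29.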

How the data were processed

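Small RNA libraries of 1 group were analysed, labelled as 2 animals by number but under a single donor identifier. The deposited tables hold raw counts per microRNA gene. Per the text files deposited beside them, reads were mapped to mm10 with GENCODE M21; for the aligner, counter, trimming and molecular identifiers, nothing is given in the sources used here. Without a header, the columns were read as unstranded, own-strand and opposite-strand counts. Entries that name no gene (unmapped 16.7% and 20.9%, multi-mapped 42.8% and 39.9%, outside microRNA genes 4.56% and 4.39% of reads) stayed out of totals and tests.

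Own-strand counts with 10 or more in the libraries together were tested against TMM library sizes (edgeR 4.0.16, R 4.3.3). An exact binomial test was used because 1 group leaves no contrast for a count model. P-values and intervals measure counting error between these libraries. Intervals for changes of ratios are exact conditional ones. DESeq2 1.42.0 size factors were an alternative. Libraries were also simulated with counting noise only, without further spread between libraries, and tested with their known totals. In them the test called 98.4% of 2-fold and 73.8% of 1.25-fold changes and 2.14% of unchanged genes at 100 or more counts. Under 100 counts it called 27.0% of 2-fold changes. These rates do not describe libraries that differ beyond counting error, as the real ones do. Sequences are from RefSeq (GRCm38.p6), host structures from GENCODE M21, folds from RNAfold 2.7.2. Scripts ran in Python 3.11.15 with SciPy 1.17.1, NumPy 2.4.6, Matplotlib 3.10.9 and pandas 2.3.3.

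Members and lists were chosen with earlier results of these data known. Named are the members, the 3 genes nearest to each, genes of the lists of copies and of paralogous hosts, and at most 3 genes with the highest means of each other list. Others are marked where named; Mir124a-2 is named for its 0 counts and Mir223 for its ratio.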

Additional observations from a re-analysis of the deposited data

Results flagged for a closer look

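Reads that fitted several places were 42.8% of the total in replicate 1 and 39.9% in replicate 2, a signal in data that no comparison of the members uses. They belong to no gene in the tables, and an exact read that lies within the 25-base run of the miR-26a loci fits both and falls among them.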

How the results depend on the processing

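Mir26a-2 was called lower in replicate 2 under all 7 alternatives run for it, at log2 ratios of -4.98 to -4.87. Mir26a-1 was not called under the 6 run for it, at -0.75 to -0.63 (adjusted p 0.121 to 0.260, exact binomial), and with 54 counts it had no value at the minimum of 100. The ratio of Mir26b turned to -0.011 with DESeq2 size factors, -0.016 with total counts and -0.0068 with unstranded counts. With totals without Mir139 it was -0.089, and 2 members were called lower in place of 1. Leaving Mir139 out of the total shifts every ratio alike, that of Mir26a-1 from -0.67 to -0.75 and that of Mir26a-2 from -4.91 to -4.98. Why Mir139 stood at 130099 and 84864 CPM in replicates 1 and 2 was not tested. TMM scaling over all genes was added after the data were seen. With an absolute log2 ratio of 1 also required, 40 genes were higher and 60 lower, against 142 and 157. As shares of all reads, a larger total by construction, levels were 2.30 CPM for Mir26a-1, 1521 for Mir26b and 1588 for the sum. Without Mir139 in the total Mir26b stood at 4822 and the sum at 5038 CPM, and unstranded at 4639 and 4841 CPM. Leaving out each library gave 4.99 to 7.96 CPM for Mir26a-1, 11.7 to 352 for Mir26a-2, 4277 to 4324 for Mir26b and 4293 to 4684 for the sum. With log2(CPM + 10), 2 of the 3 genes nearest to Mir26a-2 remained, and 3 of 3 for each other member. No paired analysis was possible because the libraries form 1 group.

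Depth limits Mir26a-1 most: at its 54 counts a ratio is known only to within its interval. The miR-26a counts come from 3p reads and long or shifted 5p reads as far as the sequences allow, and these could not be separated in tables that sum both arms.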
